A study of Mus musculus with 8 samples.

Results

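Described here are Trp53, which encodes the transcription factor p53, and 9 genes of its pathway in mouse pancreatic cancer cells exposed to extracellular vesicles (EVs, membrane-bound particles that cells release). The genes are Trp53, Cdkn1a, Mdm2, Ccng1, Bbc3, Bax, Gdf15, Trp53inp1, Phlda3 and Zmat3, chosen by name as Trp53 and established transcriptional targets of p53, and the rule uses no expression value. They are 10 of the 42687 genes in the count table, each was found by its Ensembl identifier, and all 10 passed the filter on low counts. The question was whether exposure to EVs that carry DNA was accompanied by a p53 response in the recipient cells.

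p53 is held at a low level in unstressed cells because MDM2, itself a p53 target, tags it for destruction. Damaged DNA and other stresses stabilise p53, which then binds paired half-sites near its target genes and raises their transcription, with outcomes that include cell cycle arrest, DNA repair and cell death. In pancreatic cancer Trp53 often carries a missense change in the DNA-binding domain, and such mutant proteins accumulate but activate the usual targets poorly.

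RNA was sequenced from 1 clone of low immunogenicity, derived from KPCY mice, in which Pdx1-Cre acts in the pancreatic lineage on engineered alleles, among them Trp53LSL-R172H/+ and a Rosa26YFP/YFP reporter. All 4 groups, controls included, were therefore the same clone with the same alleles. The sample labels give the genotype as WT, and the state of the remaining wild-type Trp53 allele in the clone is not stated in the sources used here. Controls received PBS. One group received ATEVs at 15 µg/mL and another received NTEVs, from non-activated T cells, at 30 µg/mL, amounts given as corresponding to 5 µg/mL of EV-DNA. The last group received 15 µg/mL of ATEVs that had been pretreated with Baseline-ZERO DNase, called DNase-ATEVs below. The labels do not spell out ATEV, which is read here as the EVs of activated T cells. Cells were harvested and reseeded the day after exposure, the procedure was repeated 8 times, and each group had 2 libraries. Separate cultures are not named for a group's libraries, and the p-values below therefore rest on a spread between libraries that may be technical.

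Libraries held 34385326 to 52451398 gene counts, 25199 genes had a count, and 15197 were tested with edgeR's quasi-likelihood test in 1 fit of all 8 libraries. The cells carried the epithelial label: all 12 markers of pancreatic ductal epithelium were tested and summed to between 10662.5 and 16036.7 counts-per-million (CPM, scaled by edgeR's TMM method). Not all of them were high: over the libraries Cldn4 was at 0.0230 to 2.04 CPM, Cldn7 at 0.0912 to 1.12 CPM and Sox9 at 3.82 to 9.11 CPM. Of 13 T cell markers 1 passed the filter, their sum was at most 6.58 CPM, and Cd2 and Cd8a were at 0 in every group. Of 10 fibroblast and endothelial markers 4 passed, with a sum of 3.15 to 11.2 CPM and with Dcn and Lum at 0 in every group. Of 8 acinar and islet markers 2 passed, with a sum of at most 2.81 CPM.

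The R172H allele changes codon 172 of Trp53. The reference sequence around it is shown because the counts pool reads of the mutant and any wild-type transcript and cannot separate them. It comes from the GENCODE M21 transcript Trp53-201, whose open reading frame has 390 codons, and is written 5′ to 3′ with the reference arginine codon in capitals and 4 codons on each side.
Trp53 codon 172: gaggtcgtgagaCGCtgcccccaccat

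Promoters of the genes were searched for the full p53 motif, which is made of adjacent 10-base half-sites. RefSeq (GRCm38.p6) promoter windows, from 250 bases before to 50 bases after a start, were matched for 8 of the 10 genes, in 12 windows, and no window was matched for Trp53inp1 or Zmat3. The search took the pair without a spacer, kept the core C and G of each half-site intact, and covered both strands because the motif is its own reverse complement. The closest matches are shown because the genes they belong to are the arrest gene Cdkn1a, the genes on which the expression results below turn, and Trp53 itself. Each is written 5′ to 3′ on the gene's strand with the 20 motif bases in capitals.
Cdkn1a, chr17:29090923-29090952, plus strand, 1 mismatch: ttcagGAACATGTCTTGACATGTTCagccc
Ccng1, chr11:40755457-40755486, minus strand, 1 mismatch: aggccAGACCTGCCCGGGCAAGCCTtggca
Trp53, chr11:69580279-69580308, plus strand, 3 mismatches: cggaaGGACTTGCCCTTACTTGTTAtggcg
Bbc3, chr7:16309481-16309510, plus strand, 3 mismatches: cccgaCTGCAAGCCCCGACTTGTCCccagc

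Of all 32851 RefSeq windows of this length, 0.067% held a match with at most 1 mismatch, 1.38% held one with at most 3, and 8.36% held an exact half-site. Among the 12 windows of the 10 genes, 5 held at least 1 exact half-site, namely those of Trp53, Mdm2, Ccng1 and Bax and 1 of the Cdkn1a windows. The best match had 5 mismatches in Phlda3, 6 in Gdf15, 7 in Bax and 9 in Mdm2. These are matches of letters within a short window. Whether p53 bound there was not measured.

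Trp53 mRNA was abundant in this clone and its classical arrest target was not. Per kilobase of exon, the mean over the 8 libraries was 68.7 CPM per kb for Trp53, followed by Bax at 24.8, Ccng1 at 21.8, Phlda3 at 17.7 and Mdm2 at 12.5 CPM per kb. Lower levels were found for Bbc3 at 7.22, Gdf15 at 5.18, Cdkn1a at 3.77, Zmat3 at 3.46 and Trp53inp1 at 2.62 CPM per kb. With PBS, Trp53 stood at the 95.8th percentile of the tested genes by this measure, Cdkn1a at the 47.6th and Trp53inp1 at the 35.9th. Over the libraries Trp53 did not overlap its neighbour Bax, and Mdm2 did not overlap Bbc3 below it. Every other neighbouring pair in the order overlapped and did not differ beyond the spread of its libraries. From the lowest to the highest library Gdf15 varied 6.89-fold, Trp53inp1 3.51-fold, Cdkn1a 2.48-fold and Bbc3 2.33-fold, whereas the other 6 genes varied between 1.45-fold (Mdm2) and 1.80-fold (Bax).

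**Figure D1:**
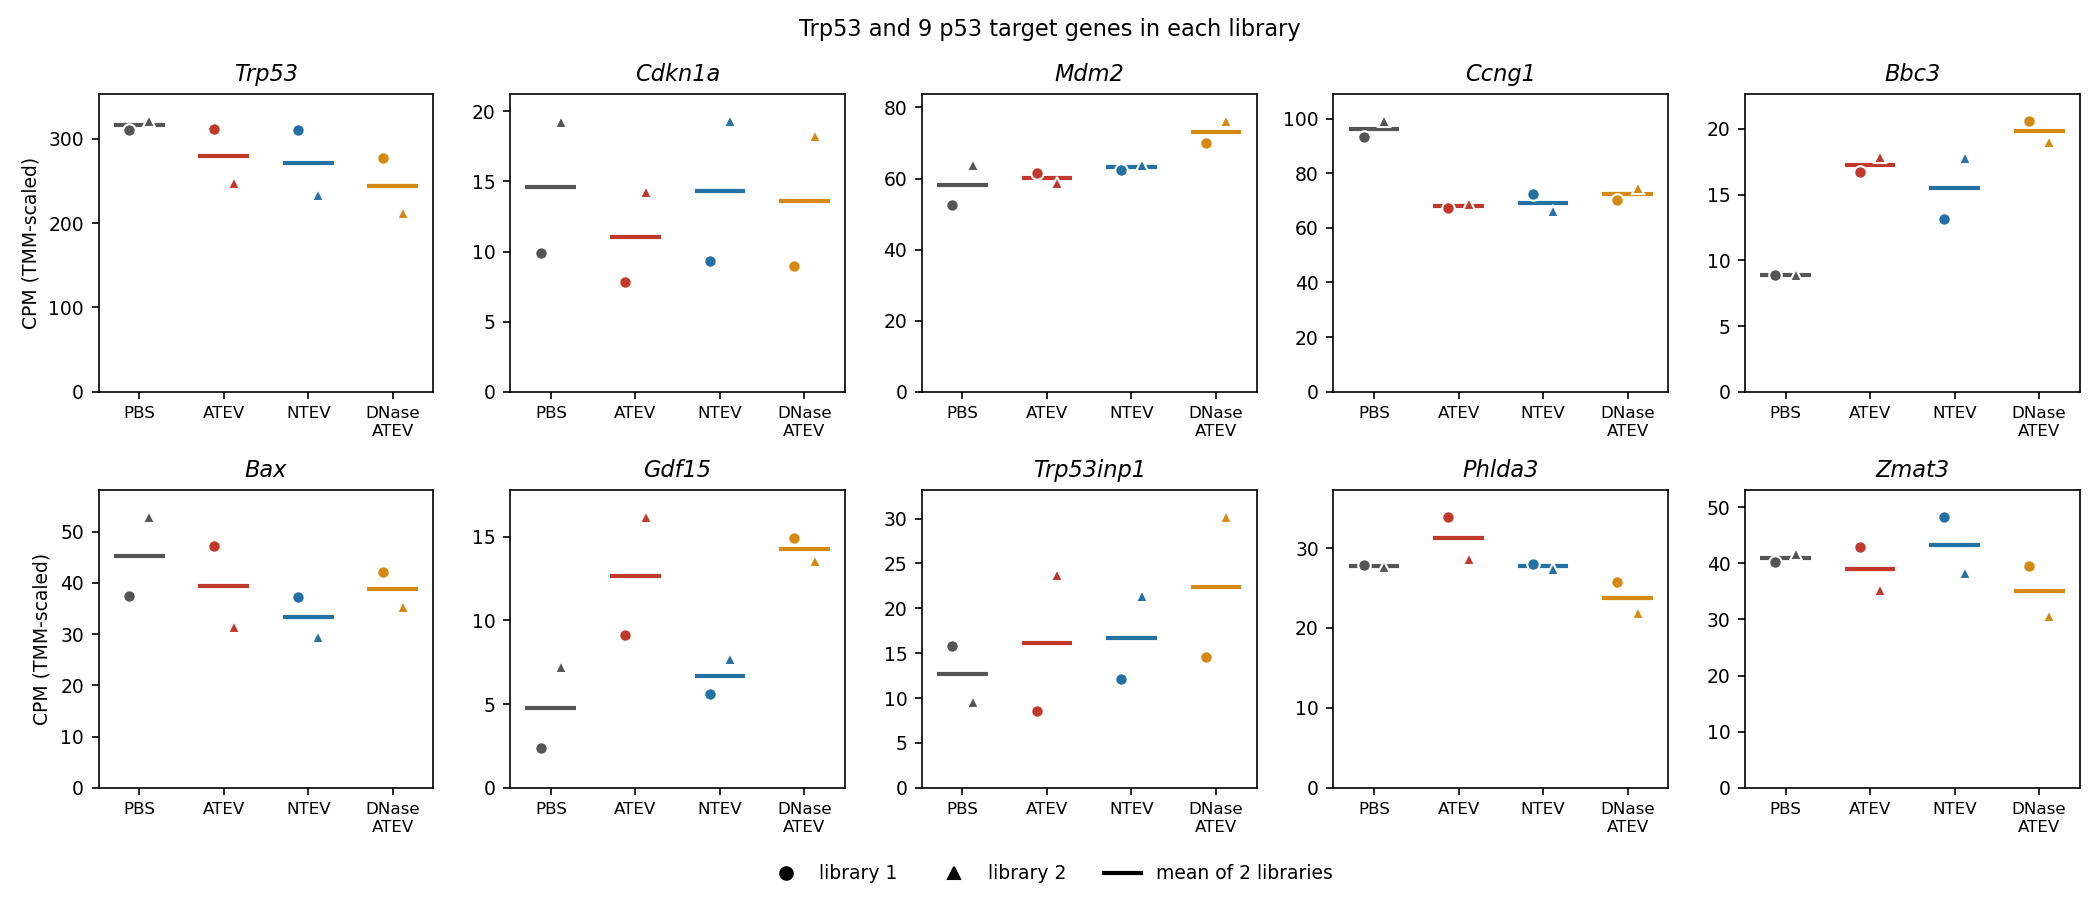
Level of each of the 10 genes in every library, as TMM-scaled CPM on a linear axis from 0 that differs between panels, by treatment group; circles are first and triangles second libraries, and bars are the mean of 2. Bbc3 sits at 8.84 and 8.86 CPM with PBS and above 13 CPM in all EV libraries, Ccng1 is lower in all EV libraries than with PBS, and Cdkn1a is split by library number inside every group.

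The transcript of the regulator itself did not pass the test in any comparison. Trp53 was at 311 and 321 CPM with PBS, 312 and 247 CPM with ATEVs, 309.8 and 233 CPM with NTEVs, and 277 and 212 CPM with DNase-ATEVs. The ATEV libraries overlapped the PBS libraries, the NTEV libraries were both lower, the first by a narrow margin, and the DNase-ATEV libraries were both lower. Against PBS the fold was 0.884 (95% interval 0.633 to 1.23, edgeR adjusted p = 0.648) with ATEVs, 0.858 (0.615 to 1.20, adjusted p = 0.541) with NTEVs and 0.774 (0.554 to 1.08, adjusted p = 0.302) with DNase-ATEVs. In bulk RNA, fewer cells that express a gene and less RNA per cell cannot be told apart. A processed copy, Trp53-ps, had at most 2 counts in any library, against at least 8499 for Trp53.

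Mdm2, the ubiquitin ligase that p53 induces and that limits p53, did not pass the test in any comparison. Its levels were 52.6 and 63.9 CPM with PBS, 61.7 and 58.7 CPM with ATEVs, 62.5 and 63.9 CPM with NTEVs, and 69.9 and 76.3 CPM with DNase-ATEVs. The DNase-ATEV libraries were the highest and did not overlap any other group, and the ATEV and NTEV libraries lay inside the PBS range. With DNase-ATEVs the fold over PBS was 1.25 (95% interval 1.00 to 1.57), with an unadjusted p of 0.0491 and an edgeR adjusted p of 0.201. The fold was 1.03 (0.824 to 1.29) with ATEVs and 1.08 (0.865 to 1.36) with NTEVs, with edgeR adjusted p = 0.874 and 0.632.

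Cdkn1a encodes p21, the cyclin-dependent kinase inhibitor through which p53 arrests the cell cycle. It was at 9.89 and 19.3 CPM with PBS, 7.79 and 14.2 CPM with ATEVs, 9.30 and 19.3 CPM with NTEVs, and 8.98 and 18.3 CPM with DNase-ATEVs. All 4 groups overlapped, and in each of them the second library was the higher, by 0.96, 0.87, 1.05 and 1.02 on the log2 scale in the same order of groups. The spread between libraries of a group was thus larger than any difference between groups. Fold changes against PBS were 0.757 (95% interval 0.318 to 1.81, edgeR adjusted p = 0.698) with ATEVs, 0.983 (0.414 to 2.34, adjusted p = 0.984) with NTEVs and 0.937 (0.394 to 2.23, adjusted p = 0.928) with DNase-ATEVs. The fit took the libraries of a group as unpaired, so the shift from first to second library widened these intervals. They leave room for changes of about the size seen between libraries, in either direction. Compared by number, the ATEV library was the lowest of the first libraries and also of the second. What separates the first from the second libraries is not stated in the labels and was not tested. A fit with a block for library number did not call Cdkn1a in any comparison.

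Ccng1 encodes cyclin G1, a p53 target that recruits a phosphatase to MDM2. It was at 93.2 and 99.3 CPM with PBS, 67.1 and 68.7 CPM with ATEVs, 72.4 and 66.1 CPM with NTEVs, and 70.1 and 74.6 CPM with DNase-ATEVs. Every EV library lay below both PBS libraries, and the ATEV and NTEV libraries overlapped. The mean of the 3 EV groups fell below PBS, with a log2 fold change of -0.46 (SE 0.0948), a fold of 0.726 (95% interval 0.622 to 0.847) and an edgeR adjusted p of 0.0363. In the single comparisons the fold was 0.706 with ATEVs (adjusted p = 0.0590), 0.720 with NTEVs (adjusted p = 0.120) and 0.752 with DNase-ATEVs (adjusted p = 0.105), none of which passed. Leaving out any 1 of the 8 libraries ended the call for the mean of the EV groups, with edgeR adjusted p between 0.0615 and 0.293. It was also lost with an offset for the GC content of transcripts, described with the base composition below (adjusted p = 0.419), with no filter on low counts (0.0516) and with protein-coding genes alone (0.0591). DESeq2 called Ccng1 with ATEVs (adjusted p = 0.0311) and for the mean (0.00725), and not with NTEVs (0.0612) or DNase-ATEVs (0.0779).

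Bbc3 was the member with the clearest difference from PBS. It encodes PUMA, a BH3-only protein that p53 and other factors induce and that triggers the mitochondrial route of cell death. Its levels were 8.86 and 8.84 CPM with PBS, 16.7 and 17.8 CPM with ATEVs, 13.2 and 17.7 CPM with NTEVs, and 20.6 and 19.0 CPM with DNase-ATEVs. All 6 EV libraries were above both PBS libraries, and the DNase-ATEV libraries were the highest. Bbc3 rose 1.95-fold with ATEVs (95% interval 1.43 to 2.65, log2 fold change 0.96, SE 0.189, edgeR adjusted p = 0.0354). It rose 2.24-fold with DNase-ATEVs (1.64 to 3.05, log2 fold change 1.16, SE 0.190, adjusted p = 0.0301). With NTEVs the fold was 1.75 (1.28 to 2.37), with an unadjusted p of 0.00351 and an edgeR adjusted p of 0.109. Over the mean of the 3 EV groups it rose 1.97-fold (1.51 to 2.56, adjusted p = 0.0222), a call that was lost without either PBS or either DNase-ATEV library (up to 0.199). These comparisons share the PBS libraries. The ATEV call was lost without either PBS, either ATEV or either DNase-ATEV library, and the DNase-ATEV call without either PBS or either DNase-ATEV library, with edgeR adjusted p up to 0.210 and 0.227. Each call was also lost with the offset for GC content (adjusted p = 0.476 with ATEVs, 0.180 with DNase-ATEVs and 0.275 for the mean). DESeq2, without that offset, called Bbc3 with ATEVs (adjusted p = 0.000497), NTEVs (0.0144) and DNase-ATEVs (2.74e-05), and for the mean (8.67e-06).

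Bax, a pore-forming effector of the same route, did not pass the test. It was at 37.5 and 52.9 CPM with PBS, 47.3 and 31.4 CPM with ATEVs, 37.2 and 29.5 CPM with NTEVs, and 42.2 and 35.3 CPM with DNase-ATEVs. The NTEV libraries lay just below both PBS libraries, and the other groups overlapped PBS. Its folds against PBS were 0.870 with ATEVs, 0.739 (95% interval 0.483 to 1.13) with NTEVs and 0.858 with DNase-ATEVs, with edgeR adjusted p of 0.689, 0.369 and 0.610. The overlapping gene model Gm45808 shares 192 exon bases with Bax and had 0 counts in every library.

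Gdf15 encodes a secreted stress cytokine of the TGF-beta family that p53 induces and that the integrated stress response induces as well. Its levels were 2.35 and 7.20 CPM with PBS, 9.13 and 16.2 CPM with ATEVs, 5.63 and 7.72 CPM with NTEVs, and 14.9 and 13.6 CPM with DNase-ATEVs. Both ATEV and both DNase-ATEV libraries were above both PBS libraries, the NTEV libraries overlapped PBS, and the PBS libraries differed about as much as the groups. The fold was 2.67 with ATEVs (95% interval 1.15 to 6.20, log2 fold change 1.42, SE 0.516, edgeR adjusted p = 0.168). It was 3.01 with DNase-ATEVs (1.29 to 7.00, log2 fold change 1.59, SE 0.518, adjusted p = 0.128) and 1.41 with NTEVs (0.611 to 3.24, adjusted p = 0.583). Gdf15 did not pass here. The size of its difference rested on which PBS library was used: without the first the log2 fold change was 0.81 with ATEVs and 0.97 with DNase-ATEVs, and without the second it was 2.43 and 2.59. It did pass with DESeq2 (adjusted p = 0.0415 with ATEVs and 0.0210 with DNase-ATEVs) and in edgeR with no filter on low counts (0.0142 and 0.00793).

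The remaining targets act on autophagy, growth signalling and RNA, and none passed the test in any comparison. Trp53inp1, a nuclear cofactor of p53 that also takes part in autophagy, was at 15.8 and 9.60 CPM with PBS, 8.60 and 23.7 CPM with ATEVs, 12.1 and 21.3 CPM with NTEVs, and 14.5 and 30.2 CPM with DNase-ATEVs. Its second library was the higher in each EV group and the lower with PBS, and all EV groups overlapped PBS. Its fold against PBS was 1.27 (95% interval 0.505 to 3.19) with ATEVs, 1.31 with NTEVs and 1.76 (0.698 to 4.43) with DNase-ATEVs, with edgeR adjusted p of 0.759, 0.694 and 0.394.

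Phlda3, a PH-domain protein that restrains Akt at the membrane, was at 27.8 and 27.6 CPM with PBS, 33.9 and 28.6 CPM with ATEVs, 28.0 and 27.4 CPM with NTEVs, and 25.7 and 21.9 CPM with DNase-ATEVs. The ATEV libraries were above and the DNase-ATEV libraries below both PBS libraries, by small amounts. Its folds against PBS were 1.13 (95% interval 0.878 to 1.45), 0.999 and 0.858 for ATEVs, NTEVs and DNase-ATEVs, with edgeR adjusted p of 0.546, 0.997 and 0.395. Zmat3, a zinc finger protein that binds RNA, was at 40.2 and 41.6 CPM with PBS, 42.9 and 35.2 CPM with ATEVs, 48.3 and 38.3 CPM with NTEVs, and 39.5 and 30.7 CPM with DNase-ATEVs. Only the DNase-ATEV libraries were both below PBS. Its folds were 0.954, 1.06 and 0.857, with edgeR adjusted p of 0.865, 0.813 and 0.485.

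**Figure D2:**
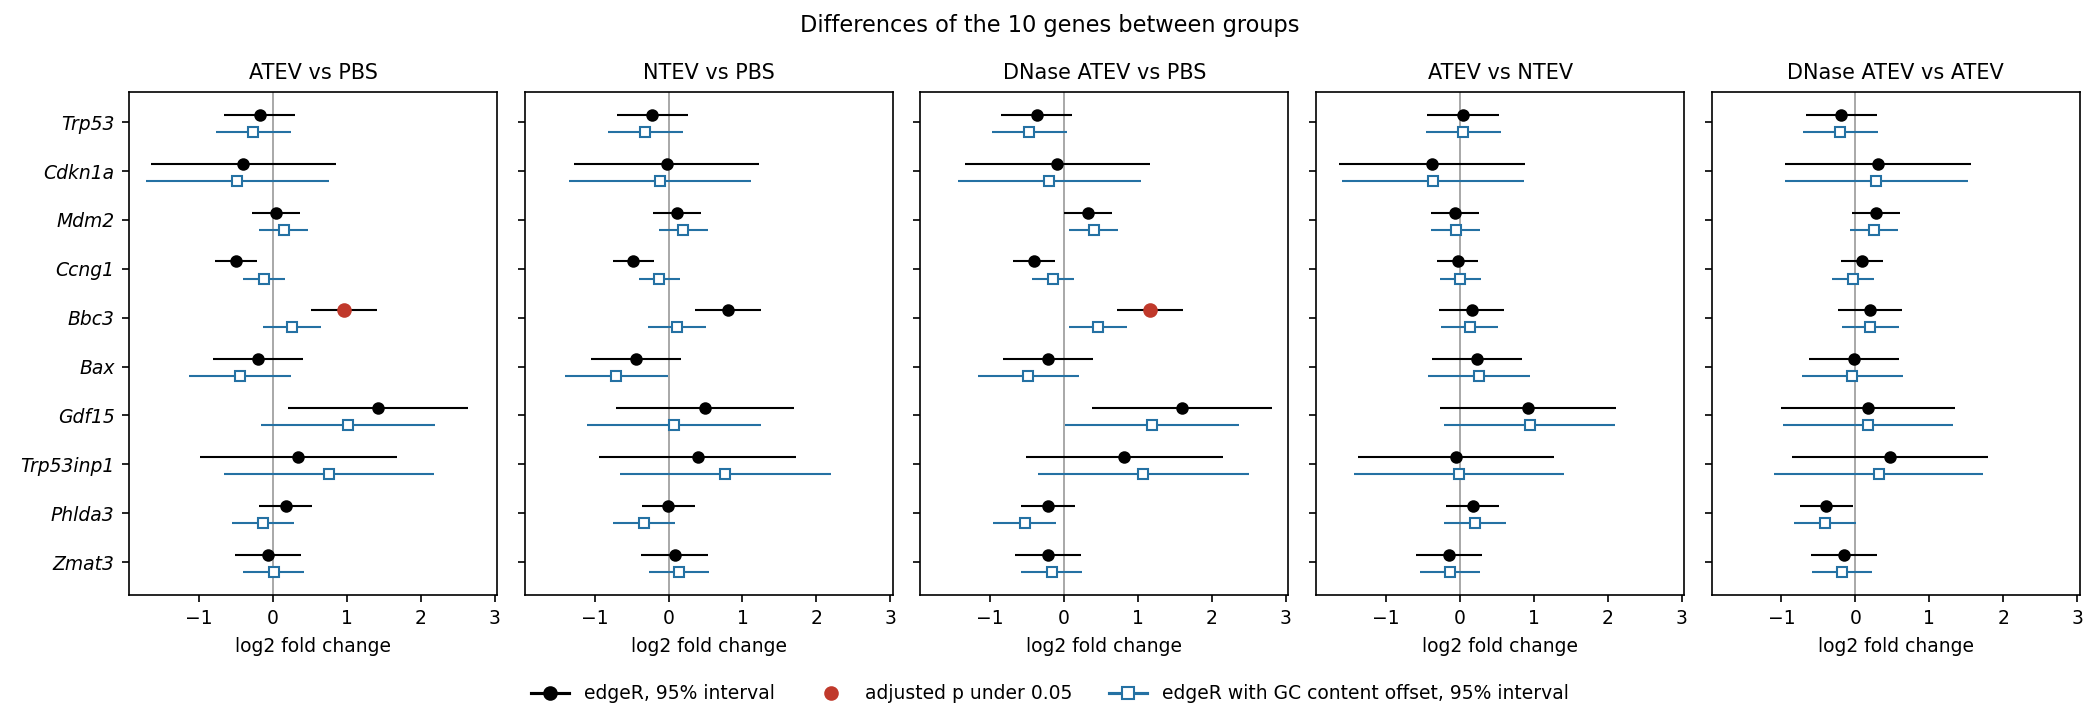
Log2 fold change of each of the 10 genes in 5 comparisons of groups, with 95% intervals from edgeR; black circles are the fit described here, red ones have an adjusted p under 0.05, and blue open squares are the fit with an offset for GC content. Bbc3 with ATEVs (0.96) and with DNase-ATEVs (1.16) against PBS are the calls, and the intervals of Cdkn1a and Trp53 include 0 in each panel.

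Counted together, few of the genes were called and the 10 were not shifted in 1 direction. With ATEVs against PBS edgeR called 1 of 10, where 5.19% of all tested genes were called, and 3 of 10 had an unadjusted p under 0.05, beside 21.9% of all genes. The median log2 fold change was -0.01 for the 10 genes and -0.02 for all tested genes. With NTEVs it called 0 of 10, where 1.11% of all genes were called. An unadjusted p under 0.05 was found for 2, beside 19.1% of all genes, and DESeq2 called 1 (Bbc3), beside 768 of 25199 genes. The medians were 0.04 and 0.00. With DNase-ATEVs 1 of 10 was called, beside 3.01% of all genes, and 4 had an unadjusted p under 0.05, beside 24.7%, with medians of -0.16 and 0. For the mean of the 3 EV groups 2 were called, beside 6.36% of all genes, and 3 had an unadjusted p under 0.05, beside 27.4%. For that mean 2 genes did not overlap PBS, beside 29.3% of all genes. Groups did not overlap for 4 of 10 genes with ATEVs, 4 with NTEVs and 7 with DNase-ATEVs, where 52.5%, 59.5% and 60.6% of all genes did not overlap. Of the 7 without overlap between DNase-ATEVs and PBS, 3 were higher (Mdm2, Bbc3 and Gdf15) and 4 lower (Trp53, Ccng1, Phlda3 and Zmat3).

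The comparison of ATEVs with NTEVs was matched on the stated EV-DNA amount, and no member passed it. edgeR called 0 of 10, where 1.19% of all genes were called, 0 had an unadjusted p under 0.05, beside 8.23% of all genes, and DESeq2 called 0. Groups did not overlap for 3 of the 10, beside 30% of all genes. The fold of ATEVs over NTEVs was 1.90 for Gdf15 (95% interval 0.832 to 4.34, edgeR adjusted p = 0.810), 1.12 for Bbc3 (0.824 to 1.51, adjusted p = 1.00) and 0.770 for Cdkn1a (0.323 to 1.84, adjusted p = 1.00).

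None of the 10 genes passed the test for DNase pretreatment of the ATEVs either. edgeR called 0 of 10 for DNase-ATEVs against ATEVs, where 0.665% of all genes were called, 1 had an unadjusted p under 0.05, beside 11.3% of all genes, and DESeq2 called 0. Groups did not overlap for 4 of 10 genes, beside 36.2% of all genes. Phlda3 had the smallest p, with a fold of 0.761 (95% interval 0.592 to 0.978, unadjusted p = 0.0366, edgeR adjusted p = 0.397). The fold of DNase-ATEVs over ATEVs was 1.21 (0.969 to 1.52, adjusted p = 0.522) for Mdm2, 1.15 (0.847 to 1.55, adjusted p = 0.796) for Bbc3, 0.875 (0.626 to 1.22, adjusted p = 0.835) for Trp53 and 1.24 (0.519 to 2.95) for Cdkn1a.

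The base composition of the transcripts went with the differences of Bbc3 and Ccng1 from PBS, and not with those of all 10 genes. Bbc3 has the highest GC content of the 10 transcripts, 67.1%, and Ccng1 one of the lowest, 39.5%, beside Trp53inp1 at 39.4%. Gdf15 has 61.7%, Phlda3 60.2%, Bax 59.0%, Trp53 54.0%, Cdkn1a 53.7%, Zmat3 47.8% and Mdm2 47.2%, and the median of 12732 tested protein-coding genes is 50.2%. Across protein-coding genes the log2 fold change against PBS followed GC content: its median in the lowest and in the highest decile of GC content was -0.34 and 0.29 for ATEVs, -0.38 and 0.34 for NTEVs, and -0.27 and 0.29 for DNase-ATEVs. When this trend was removed by an offset for each library, no member passed in any comparison with PBS. Bbc3 then had a fold of 1.19 with ATEVs (edgeR adjusted p = 0.476) and 1.37 with DNase-ATEVs (adjusted p = 0.180), and Ccng1 had a log2 fold change of -0.13 for the mean of the EV groups (adjusted p = 0.419). Gdf15 had folds of 2.02 (adjusted p = 0.338) and 2.28 (adjusted p = 0.219) and passed neither with the offset nor in the main edgeR fit without it. Trp53inp1 and Bax, which did not pass, ran against the trend. Without the offset their log2 fold changes with ATEVs, NTEVs and DNase-ATEVs were 0.35, 0.39 and 0.81 for Trp53inp1 and -0.20, -0.44 and -0.22 for Bax. The offset took some values further from 0, such as Bax with NTEVs (to -0.70) and Phlda3 with DNase-ATEVs (from -0.22 to -0.54). Among genes in the same decile of GC content, 13.0% had a log2 fold change at least as high as that of Bbc3 with ATEVs, 18.6% with NTEVs and 12.3% with DNase-ATEVs. For Gdf15 the shares were 6.53%, 35.3% and 7.23%. That decile runs from 57.9% to 76.3% GC with a median of 59.4%, so most of its genes lie below Bbc3 and Gdf15 in GC content. The offset took the log2 fold change of Bbc3 with ATEVs from 0.96 to 0.25, and the decile's median from 0.29 to 0.0051. The trend runs with EV exposure against PBS, and the part of each in the Bbc3 values was not tested.

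**Figure D3:**
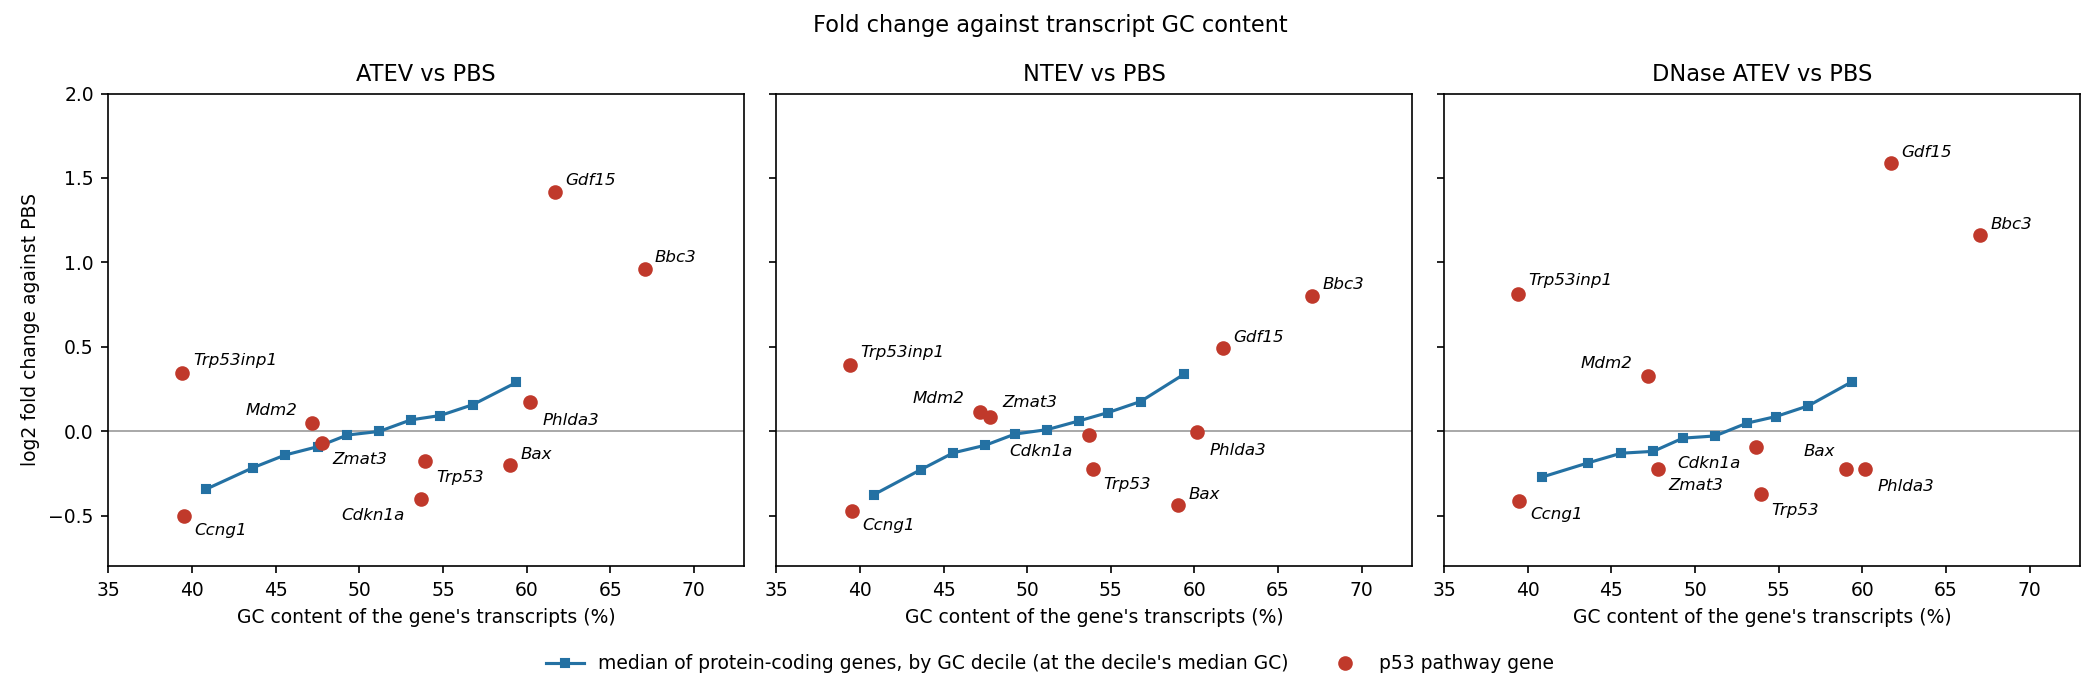
Log2 fold change against PBS plotted on the GC content of the transcript (percent), with the median of tested protein-coding genes in each GC decile as the line and the 10 genes as labelled points. With ATEVs the line runs from -0.34 in the lowest decile to 0.29 in the highest, and Bbc3 at 67.1% GC and Ccng1 at 39.5% GC lie beyond its ends.

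Other genes of the pathway were taken from lists by role. Of 20 further p53 targets in arrest and repair, edgeR called 0 in each single comparison with PBS. An unadjusted p under 0.05 was found for 5 with ATEVs, 4 with NTEVs and 6 with DNase-ATEVs, beside 21.9%, 19.1% and 24.7% of all tested genes. DESeq2 called 3, 0 and 2 of the list, beside 1471, 768 and 1513 of 25199 genes. The list's median log2 fold changes were -0.11, 0.09 and -0.11. For the mean of the EV groups Ier5, an immediate early gene, rose (log2 fold change 0.96, adjusted p = 0.0400), and Sfn, which encodes the cell cycle inhibitor 14-3-3 sigma, fell (-0.70, adjusted p = 0.0480). In that comparison 6.36% of all tested genes were called. Leaving out 1 library ended the Sfn call in all 8 cases and the Ier5 call in 6, with adjusted p up to 0.361 and 0.257. With the GC offset the Ier5 call was lost (adjusted p = 0.0609), whereas Sfn fell for the mean (adjusted p = 0.0268), with ATEVs (log2 fold change -1.15, adjusted p = 0.0374) and with DNase-ATEVs (-1.23, adjusted p = 0.0457).

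Of 19 tested p53 targets in cell death and metabolism, edgeR called 1 higher and 1 lower with ATEVs, and likewise with DNase-ATEVs, beside 5.19% and 3.01% of all tested genes. An unadjusted p under 0.05 was found for 2 higher and 2 lower with ATEVs, beside 21.9% of all genes. With DNase-ATEVs it was found for 3 higher and 3 lower, beside 24.7%. Fas encodes a death receptor that p53 and other factors, NF-kB and interferon signalling among them, can induce. It was at 0.311 and 0.547 CPM with PBS, 13.1 and 7.94 CPM with ATEVs, 0.352 and 0.572 CPM with NTEVs, and 3.75 and 4.41 CPM with DNase-ATEVs. Both groups given ATEVs stood apart from PBS and NTEVs, which overlapped. Fas rose 25.0-fold with ATEVs (log2 fold change 4.64, SE 0.443, edgeR adjusted p = 0.00247), 9.69-fold with DNase-ATEVs (adjusted p = 0.0188) and 22.8-fold with ATEVs over NTEVs (adjusted p = 0.00441). The DNase-ATEV call was lost without either PBS library (adjusted p = 0.159 and 0.118) or either DNase-ATEV library (0.0592 and 0.0956), and the ATEV call held without any 1 library (up to 0.0394). DNase-ATEVs against ATEVs gave a log2 fold change of -1.37 with an adjusted p of 0.233 in edgeR, and DESeq2 called that difference.

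Perp, a p53 target in desmosomes and cell death, went the other way. It was at 137 and 151 CPM with PBS, 69.3 and 63.4 CPM with ATEVs, 111 and 106 CPM with NTEVs, and 109.7 and 99.5 CPM with DNase-ATEVs. Every EV library was below PBS and the ATEV libraries were lowest. Perp fell to 0.461 of PBS with ATEVs (log2 fold change -1.12, SE 0.126, edgeR adjusted p = 0.00444), a call that was lost without the second PBS library (adjusted p = 0.0580). DNase-ATEVs against ATEVs gave a log2 fold change of 0.66 for Perp with an edgeR adjusted p of 0.102, a difference that DESeq2 called. With DNase-ATEVs against PBS Ei24, which encodes an endoplasmic reticulum protein needed for autophagy, fell (log2 fold change -0.69, adjusted p = 0.0440), a call lost without any 1 of the 8 libraries. For the mean of the EV groups edgeR called Fas (2.68, adjusted p = 0.0147), Perp (-0.66, 0.0153) and Ei24 (-0.61, 0.0222), beside 6.36% of all genes. These calls held with the GC offset (adjusted p = 0.0137, 0.0194 and 0.0292), and each was lost without either PBS library. The Ei24 call was also lost without the second NTEV library. With NTEVs edgeR called 0 genes of this list, and 3 had an unadjusted p under 0.05, all lower, beside 19.1% of all genes. DESeq2 called 1 with NTEVs (Ei24), beside 768 of 25199 genes. With the GC offset Fas (4.83 with ATEVs and 3.44 with DNase-ATEVs) and Perp (-1.04) were still called.

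Of 18 tested regulators and family members of p53, the acetyltransferase gene Ep300 rose with NTEVs (log2 fold change 0.67, edgeR adjusted p = 0.0426), a call lost without any 1 of the 8 libraries. It was the 1 called with NTEVs, beside 1.11% of all genes. With ATEVs or DNase-ATEVs 0 were called, beside 5.19% and 3.01%. For the mean of the EV groups Ep300 was called as well (0.45, adjusted p = 0.0353), beside 6.36% of all genes. That call did not hold without either PBS library, either NTEV library or the second ATEV library. An unadjusted p under 0.05 was found for 3 of them with ATEVs, 5 with NTEVs and 5 with DNase-ATEVs, shares near the 21.9%, 19.1% and 24.7% of all genes. DESeq2 called 0, 2 and 2 of them, beside 1471, 768 and 1513 of 25199 genes.

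Of 20 cell cycle genes that p53 lowers through p21 and the DREAM repressor complex, edgeR and DESeq2 called 0 in any comparison. An unadjusted p under 0.05 was found for 0, 1 and 2 of them against PBS for ATEVs, NTEVs and DNase-ATEVs, lower shares than the 21.9%, 19.1% and 24.7% of all genes. Summed over the 20 genes, the level was 3459 and 4181 CPM with PBS, 4588 and 2164 CPM with ATEVs, 3401 and 1804 CPM with NTEVs, and 2747 and 1987 CPM with DNase-ATEVs. The second library was lower than the first for 20 genes with ATEVs, 20 with NTEVs and 19 with DNase-ATEVs, and for 2 with PBS. The log2 fold changes were negative in 14, 18 and 20 of 20 genes, with medians of -0.16, -0.52 and -0.69, beside -0.02, 0.00 and 0 for all tested genes. Leaving out each library in turn, a check added after seeing the data, moved these medians. Without the second library of the EV group they were 0.27 for ATEVs, -0.22 for NTEVs and -0.40 for DNase-ATEVs, and without the first -0.65, -1.02 and -0.79. The ATEV median was also -0.26 without the first and -0.0522 without the second PBS library. Between DNase-ATEVs and ATEVs the median was -0.49 and turned to 0.14 without the first ATEV library, and between ATEVs and NTEVs it was 0.35 and turned to -0.18 without that library. The part of what separates the first from the second libraries in these values was not tested. Cdkn1a, the gene of p21, had the values given above. With the GC offset the medians against PBS were -0.15, -0.57 and -0.60.

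Targets of the integrated stress response were counted beside Gdf15 because that pathway also induces it. Of 12 tested, Cebpb rose with ATEVs (log2 fold change 1.60, edgeR adjusted p = 0.0143) and with DNase-ATEVs (1.24, adjusted p = 0.0470). It was the 1 gene that edgeR called in each, beside 5.19% and 3.01% of all tested genes. DESeq2 called 1 of the list with ATEVs, 0 with NTEVs, 2 with DNase-ATEVs and 4 for the mean of the EV groups, all higher. Beside these it called 1471, 768, 1513 and 2102 of 25199 genes. An unadjusted p under 0.05 was found for 2 with ATEVs, 3 with NTEVs and 5 with DNase-ATEVs, all higher, beside 21.9%, 19.1% and 24.7% of all genes. The list's median was 0.41 with ATEVs, -0.27 with NTEVs and 0.95 with DNase-ATEVs. With the GC offset these medians were 0.22, -0.28 and 0.61. Leaving out either PBS library ended both calls (adjusted p up to 0.134 and 0.238), as did the second ATEV library for ATEVs and any but the NTEV libraries for DNase-ATEVs. With the GC offset Cebpb did not pass (adjusted p = 0.0509 and 0.180). For the mean of the EV groups Cebpb was called (log2 fold change 1.20, edgeR adjusted p = 0.0241), and not with the GC offset (0.138). The list's medians also join unlike libraries: with DNase-ATEVs Trib3 was at 81.8 and 21.7 CPM, and Atf3 at 106 and 390 CPM. The part of this pathway in the Gdf15 values was not tested.

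**Figure D4:**
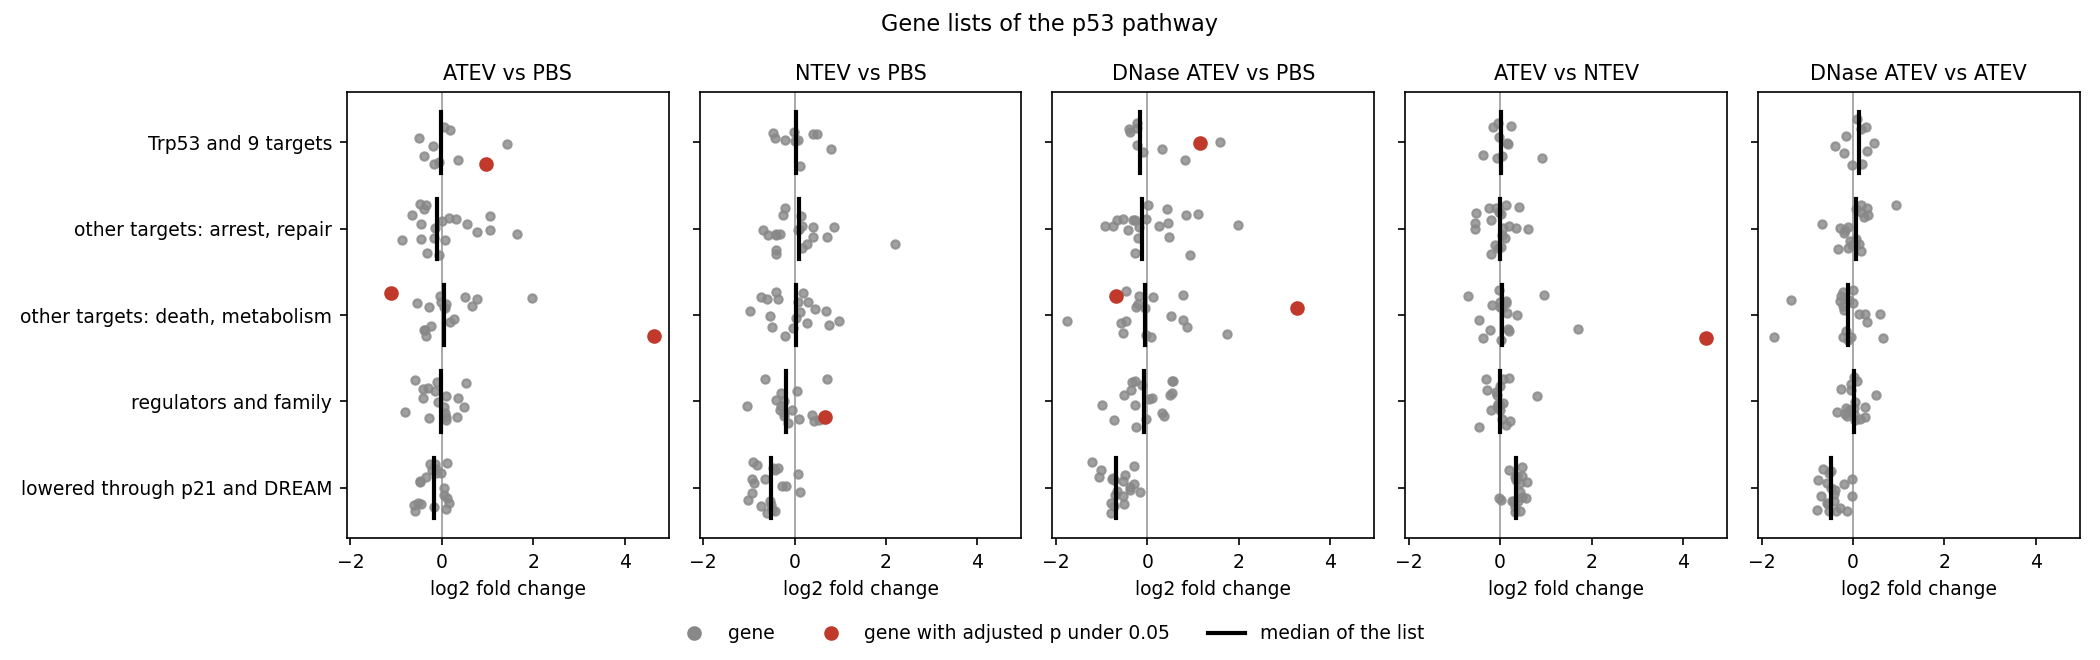
Log2 fold change of every tested gene of 5 lists of the p53 pathway in 5 comparisons, with a bar at each list's median; red points have an edgeR adjusted p under 0.05. Fas with ATEVs (4.64) and with DNase-ATEVs (3.28) against PBS is the rightmost point, and the medians of the further target lists lie between -0.11 and 0.09 against PBS.

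Patterns across the 8 libraries were compared for Trp53 and Cdkn1a. Likeness was the root mean square difference of log2 CPM after centring each gene, among 9352 protein-coding genes. The genes nearest to Trp53 were Eif3a at 0.0370, Elp4 at 0.0410 and Agk at 0.0413, small beside the gene's own spread of 0.215. Nearest to Cdkn1a were Slc22a4 at 0.225, Insig1 at 0.236 and Fgfbp1 at 0.239, less close, beside the gene's own spread of 0.511. These values describe 8 libraries that share 4 treatments.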

How the data were processed

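Whole-number gene counts were used as deposited by the authors, in 1 table of 8 libraries and 42687 Ensembl genes. Library preparation was stranded and took mRNA from total RNA, per the labels' protocols. Build mm9, Cufflinks 2.1.1, TopHat, TopHat2 2.0.11 and bcl2fastq 2.19 appear in the submitters' processing notes without a role. How genes were counted, with which strand setting and annotation, is not given in the sources used here, so overlapping genes are uncertain. Symbols, exon lengths, GC content and Trp53-201 came from GENCODE M21, which named 42250 identifiers, and promoters from RefSeq. No mm9 coordinates are printed.

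Groups followed the sample titles. One engineered allele of the clone is not reported here. The members, lists and tests were chosen with earlier results of these data known. R 4.3.3 and edgeR 4.0.16 were used: filterByExpr left 15197 genes, TMM scaled the libraries, and a quasi-likelihood fit with 1 coefficient for each group (4 residual degrees of freedom, common biological coefficient of variation 0.226) gave two-sided p-values, adjusted by Benjamini-Hochberg over all tested genes with a threshold of 0.05. The mean of the 3 EV groups weights them equally. The EV comparisons with PBS share their control libraries. An exact permutation test of 2 libraries against 2 cannot go below p = 0.333. Intervals are 95%.

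All 10 members are named. Of the arrest and repair, cell death and metabolism, regulator, DREAM and integrated stress response lists, up to 4 genes with the smallest p among those called in a comparison are named. Trib3 and Atf3 are named besides for their spread between libraries, and Dram1 and Steap3 because DESeq2 called them. For Trp53 and Cdkn1a the 3 nearest genes are named. Alternatives were RLE scaling, DESeq2 1.42.0, other filters, protein-coding genes alone, the compared groups alone, a replicate block, a GC offset and each library left out. The fit and the GC offset were tested on simulated data.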

Additional observations from a re-analysis of the deposited data

How the results depend on the processing

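With 2 libraries a group, calls depended on single libraries. Members called numbered 1, 0, 1 and 2 for ATEVs, NTEVs, DNase-ATEVs and the mean of the EV groups against PBS, and ranged from 0 to 1, 0 to 0, 0 to 1 and 0 to 1 when 1 library was left out; without any 1 library 0 were called between EV groups. DESeq2 called 3 with ATEVs, 1 with NTEVs, 2 with DNase-ATEVs and 3 for the mean, where 1471, 768, 1513 and 2102 of 25199 genes were called. With no filter on low counts, 2 were called with ATEVs and 2 with DNase-ATEVs, where 1454 and 1520 of 25199 genes were called. Protein-coding genes alone gave 0 with DNase-ATEVs (Bbc3 adjusted p = 0.0611) and 1 for the mean, the compared groups alone gave 0 with ATEVs (Bbc3 adjusted p = 0.0707), and the GC offset gave 0 with ATEVs, 0 with DNase-ATEVs and 0 for the mean.

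Replicate numbers did not pair all groups: deviations of same-numbered libraries correlated at 0.485 to 0.552 between EV groups and at -0.236 to -0.141 with PBS. With the replicate block 2 members were called with DNase-ATEVs (Gdf15, adjusted p = 0.0485, beside Bbc3) and all genes called went from 788 to 1182 with ATEVs, 169 to 330 with NTEVs, 458 to 1052 with DNase-ATEVs, 966 to 1826 for the mean, 181 to 255 between ATEVs and NTEVs and 101 to 127 between DNase-ATEVs and ATEVs. A block in the 6 EV libraries alone, chosen after seeing the data, called 1087 and 1736 genes in the last 2 comparisons and 0 members, and Bax for DNase-ATEVs over ATEVs turned to 0.000894.

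All genes called also moved by DESeq2 (1471 with ATEVs, 768 with NTEVs, 1513 with DNase-ATEVs, 469 and 356 between EV groups, 2102 for the mean), no filter (1454, 773, 1520, 459, 343 and 2191), protein-coding genes alone (370, 1, 33, 172, 88 and 220), the compared groups alone (454 with ATEVs, 51 and 47 between EV groups) and the GC offset (295 with DNase-ATEVs, 598 for the mean). Leaving out 1 library gave 131 to 562, 5 to 125, 11 to 382, 71 to 166, 27 to 99 and 43 to 984, with the low ends against PBS set by leaving out a PBS library.

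Of the log2 fold changes, those that changed sign are given next. Phlda3 with NTEVs (-0.00185) turned to 0.0136 with RLE, 0.0156 with DESeq2, 0.0112 with no filter, 0.0101 with at least 1 CPM, 0.00621 with protein-coding genes and 0.0137 with the compared groups alone, and for the mean to 0.00143, 0.00130 and 0.00324 with RLE, DESeq2 and at least 1 CPM. The GC offset turned Phlda3 (-0.13) and Zmat3 (0.0102) with ATEVs, and Ccng1 between ATEVs and NTEVs (0.00643) and between DNase-ATEVs and ATEVs (-0.0344). Leaving out 1 library, values with ATEVs against PBS spanned -0.48 to 0.0686 (Bax), -0.90 to 0.15 (Cdkn1a), -0.0932 to 0.19 (Mdm2), -0.56 to 0.94 (Trp53inp1) and -0.17 to 0.0691 (Zmat3). With NTEVs they spanned -0.65 to 0.53 (Cdkn1a), -0.12 to 1.50 (Gdf15), -0.0252 to 0.26 (Mdm2), -0.00992 to 0.0240 (Phlda3), -0.0746 to 0.79 (Trp53inp1) and -0.0537 to 0.24 (Zmat3). With DNase-ATEVs they spanned -0.46 to 0.0395 (Bax) and -0.68 to 0.45 (Cdkn1a), and for the mean -0.59 to 0.38 (Cdkn1a), -0.0306 to 0.0440 (Phlda3) and -0.10 to 0.0102 (Zmat3). Between ATEVs and NTEVs they spanned -0.0659 to 0.51 (Bax), -0.0499 to 0.39 (Bbc3), -0.0906 to 0.0306 (Ccng1), -0.87 to 0.24 (Cdkn1a), -0.15 to 0.25 (Trp53), -0.95 to 0.52 (Trp53inp1) and -0.31 to 0.0161 (Zmat3), and between DNase-ATEVs and ATEVs -0.29 to 0.28 (Bax), -0.32 to 0.80 (Cdkn1a), -0.21 to 0.63 (Gdf15) and -0.18 to 1.37 (Trp53inp1). Bbc3, Ccng1 and Gdf15 kept their sign under every alternative against PBS but Gdf15 with NTEVs. The cause was not tested, and a left-out library leaves a group with 1, assumed to vary like the others.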
